A study of Mus musculus with 31 samples.

Results

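The transport proteins that carry bile acids, hormones, metals and drugs through liver cells were followed here as mRNAs in the livers of *hFIX-R29X* mice treated with an antisense oligonucleotide (ASO) against *Upf3b*. The genes were taken by symbol, as every *Slco*, *Slc10a*, *Slc22a*, *Slc47a*, *Abcb*, *Abcc* or *Abcg* gene with a number after the family name, and 76 of the 31172 symbols used were members. By known role, 34 were uptake carriers, 17 were efflux pumps or extruders of the plasma membrane, 5 were ABC transporters of intracellular membranes and 20 fell in none of these lists.

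Liver RNA was sequenced separately from 31 mice in 5 groups. The vehicle DPBS was injected into 6 females and 5 males. Control-GalNAc-ASO went to 2 females and 2 males at a dose of 15 mg/kg, and to 3 females and 3 males at 20 mg/kg. *Upf3b*-GalNAc-ASO went to 2 females and 3 males at each of its doses, 10 mg/kg and 20 mg/kg. All mice, controls included, carried a human factor IX minigene with the R29X nonsense mutation, driven in hepatocytes by a human transthyretin promoter, in place of the mouse factor IX gene. They were 8 to 14 weeks old and received 6 subcutaneous doses 5 days apart, a spacing that the dose entry of the labels gives instead as weekly, and livers were collected 48 h later than the final dose. GalNAc is a sugar that directs an ASO to hepatocytes. The first *Upf3b* group was compared with a control group that had a higher dose of ASO, whereas the second comparison, called the matched pair, was at equal dose. *Upf1*-GalNAc-ASO mice were not analysed here.

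Hepatocytes take up bile acids and organic anions from blood by *Slc10a1* (NTCP) and the *Slco* (OATP) carriers, and organic cations, anions and carnitine by *Slc22a* carriers (OCT, OAT and OCTN). They secrete bile salts, phospholipid, sterols, conjugates and cations into the bile canaliculus by ABC transporters and by *Slc47a1* (MATE1), a proton-coupled extruder, and return conjugates to blood by *Abcc3* and *Abcc4*. UPF3B is a factor of nonsense-mediated mRNA decay, the pathway that degrades transcripts with premature stop codons.

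The *Upf3b*-GalNAc-ASO is shown with its complement and with the closest match in any member. That match lies in *Abcc2*, whose mRNA was lower than in control mice at 20 mg/kg (limma adjusted p under 0.05), in 9 of 22 other settings too. At 10 mg/kg and against DPBS it did not pass that threshold. Capitals mark bases that differ from the complement, and all sequences are written 5′ to 3′.
Upf3b-GalNAc-ASO: ggatatagatgtaacg
Complement, in *Upf3b*: cgttacatctatatcc
Closest site, in *Abcc2*: cTttacatGtatatcc
The *Abcc2* site differs from the complement by G2T and C9G, counted from 1 at the 5′ end of the complement, and its longest run without a mismatch is 7 bases. It lies at chr19:43838574-43838589 on the plus strand of GRCm38, in the 3′ UTR, within exon 32 of 32 by GENCODE M21. A full match was found only in *Upf3b* (3′ UTR, exon 10 of 10, chrX:37091973-37091988, minus strand) among 55330 genes searched as spliced transcripts. Sites with at most 2 mismatches were found in 13 genes, or 0.023% of those searched, and *Abcc2* was the only one among the 76 members. Of the 11 genes other than *Upf3b* and *Abcc2*, 5 were expressed enough to test, and in the average of both dose pairs 1 was lower and 1 was higher at an adjusted p under 0.05 (limma). Whether the ASO binds *Abcc2* mRNA was not tested, and a match of this kind is a description of letters only.

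Values are TPM as deposited, which here behaved as reads scaled to a common total and not divided by transcript length, so levels are compared between mice and not between genes. The recovered depth was between 1012526 and 7334086 reads per mouse, and 3 reads were worth between 0.406 and 2.94 TPM, a limit that covers counting error only. *Upf3b* itself had a median of 104 TPM in DPBS mice, and 62.7 TPM and 113 TPM in the control groups at 15 and 20 mg/kg. Its medians were 20.7 TPM and 7.68 TPM in the *Upf3b* groups at 10 and 20 mg/kg. Replicate 3 at 10 mg/kg had 53.7 TPM of *Upf3b*, within the range of its control group (27.1 to 78.7 TPM). The other mice of both *Upf3b* groups lay below their control groups. Relative to control mice, the log2 fold change was -1.73 (SE 0.61, limma adjusted p = 0.211) in the first pair and -3.87 (SE 0.40, adjusted p = 1.59e-05) at 20 mg/kg. Hepatocyte markers were expressed in every group, with a sum over 8 of them between 14362 and 36319 TPM, and in the average of both pairs all 8 had a log2 fold change below 0 (median -0.30), 2 of them at an adjusted p under 0.05 (limma), where 3.7% of genes were called as lower. In the matched pair 7 of the 8 were below 0 (median -0.23) and none passed. The summed level of 7 endothelial markers was 1544 to 2242 TPM in the *Upf3b* group at 20 mg/kg and 621 to 1676 TPM in its control group, but 6 of the 7 had a log2 fold change below 0 (median -0.53) and 1 was above 0 and passed the test, so the sum does not stand for the list. The part of either list in the results below was not tested. Sums of 6 stellate cell markers were 87.5 to 173 TPM and 113 to 196 TPM in the same groups. In whole liver, fewer cells of a type and less RNA per cell cannot be told apart. Replicate 3 of the *Upf3b* group at 10 mg/kg had the fewest reads, and replicate 2 of the *Upf3b* group at 20 mg/kg had the lowest value of its group for *Slc47a1*, *Abcc2*, *Abcb11*, *Abcb4* and *Slco1b2*. Values without these mice are given for some of the members below.

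Of the 76 members, 63 had a value above 0 in at least 1 mouse, 26 in all 31 mice, and 13 were at 0 in every mouse. A gene was tested where its median reached 5 TPM in any of the groups under comparison, which left 37 members in the comparison over both dose pairs. The 37 were 13 of 34 uptake members, 13 of 17 efflux members, all 5 intracellular members and 6 of the other 20. This filter kept 8 of 9 canalicular efflux members and 5 of the 20 *Slc22a* carriers of the uptake list. Several members lie side by side: 40 of the 76 were within 1 Mb of another member, in 12 clusters. The 2 with the most members were a *Slc22a* cluster at chr19:7673061-8628299 (8 members) and a *Slco1* cluster at chr6:141524368-142702315 (7 members, 6 of them *Slco1* genes).

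The mRNA with the largest change among the members was *Slc47a1*, which encodes MATE1, the extruder of organic cations into bile. It lies at chr11:61343401-61378345 (minus strand). In the *Upf3b* group at 10 mg/kg, replicates 1 to 5 had 15.3, 16.2, 3.92, 17.1 and 2.58 TPM, and the 4 control mice of that pair had 142, 83.0, 89.0 and 73.4 TPM. In the *Upf3b* group at 20 mg/kg, replicates 1, 2, 4, 5 and 6 had 8.95, 1.54, 15.7, 22.5 and 12.3 TPM. The control group at 20 mg/kg had a lowest value of 29.4, a median of 69.1 and a highest value of 128 TPM, and DPBS mice had 42.0, 62.7 and 169.7 TPM. All 10 mice given *Upf3b*-GalNAc-ASO were thus below all 21 others, in females and in males. The log2 fold change of TPM + 1 was -3.28 (SE 0.54, limma adjusted p = 0.0184) in the first pair and -2.64 (SE 0.49, adjusted p = 0.00601) at 20 mg/kg. Averaged over both pairs it was -2.95 (SE 0.38, adjusted p = 1.3e-05), a 7.75-fold lower level. Without replicate 3 at 10 mg/kg and replicate 2 at 20 mg/kg it was -2.57 (SE 0.32, limma adjusted p = 7.17e-06). In the first pair the adjusted p rose above 0.05 when any 1 of the 4 control mice was left out (0.0526 to 0.151), with log2 fold changes between -3.54 and -2.91 over all 9 mice left out in turn. That call was also lost with no filter on low values, in females only and in males only (limma adjusted p up to 0.572). The call at 20 mg/kg was lost in males only (limma adjusted p = 0.281). The 3.92 TPM of replicate 3 at 10 mg/kg stood for 4 estimated reads.

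*Abcc2* encodes MRP2, the canalicular pump for bilirubin glucuronides and other conjugates, and lies at chr19:43782192-43840740 (plus strand). At 20 mg/kg, replicates 1, 2, 4, 5 and 6 of the *Upf3b* group had 160.2, 23.2, 157, 204 and 133 TPM, and the median of the 6 control mice was 411 TPM (range 213 to 553 TPM). The groups did not overlap, and replicate 2 lay apart from the other 4. At 10 mg/kg the *Upf3b* mice had 171, 337, 717, 178 and 211 TPM against 400.2, 304, 362 and 461 TPM in their control group, so that replicate 3 was above and 3 of 5 mice were below every control mouse. The log2 fold change was -1.64 (SE 0.42, limma adjusted p = 0.0477) at 20 mg/kg, -0.41 (SE 0.38, adjusted p = 0.616) in the first pair and -1.02 (SE 0.30, adjusted p = 0.0405) as their average. The matched value was -1.16 (adjusted p = 0.0209) without replicate 2 of the *Upf3b* group. The call at 20 mg/kg was lost without any 1 of the 6 control mice or without replicate 1 or 6 of the *Upf3b* group (adjusted p = 0.0673 to 0.134, limma). It was also lost with a pseudocount of 0.5 TPM, with no filter on low values, without the sex term, in males only and with the replicate block (adjusted p = 0.0530 to 0.441), so that it was made in 9 of 22 settings. That of the average was lost without any of 13 of the 20 mice (adjusted p = 0.0524 to 0.0905), and with no filter, without the sex term, in either sex alone and with the block (adjusted p = 0.0523 to 0.333).

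**Figure D1:**
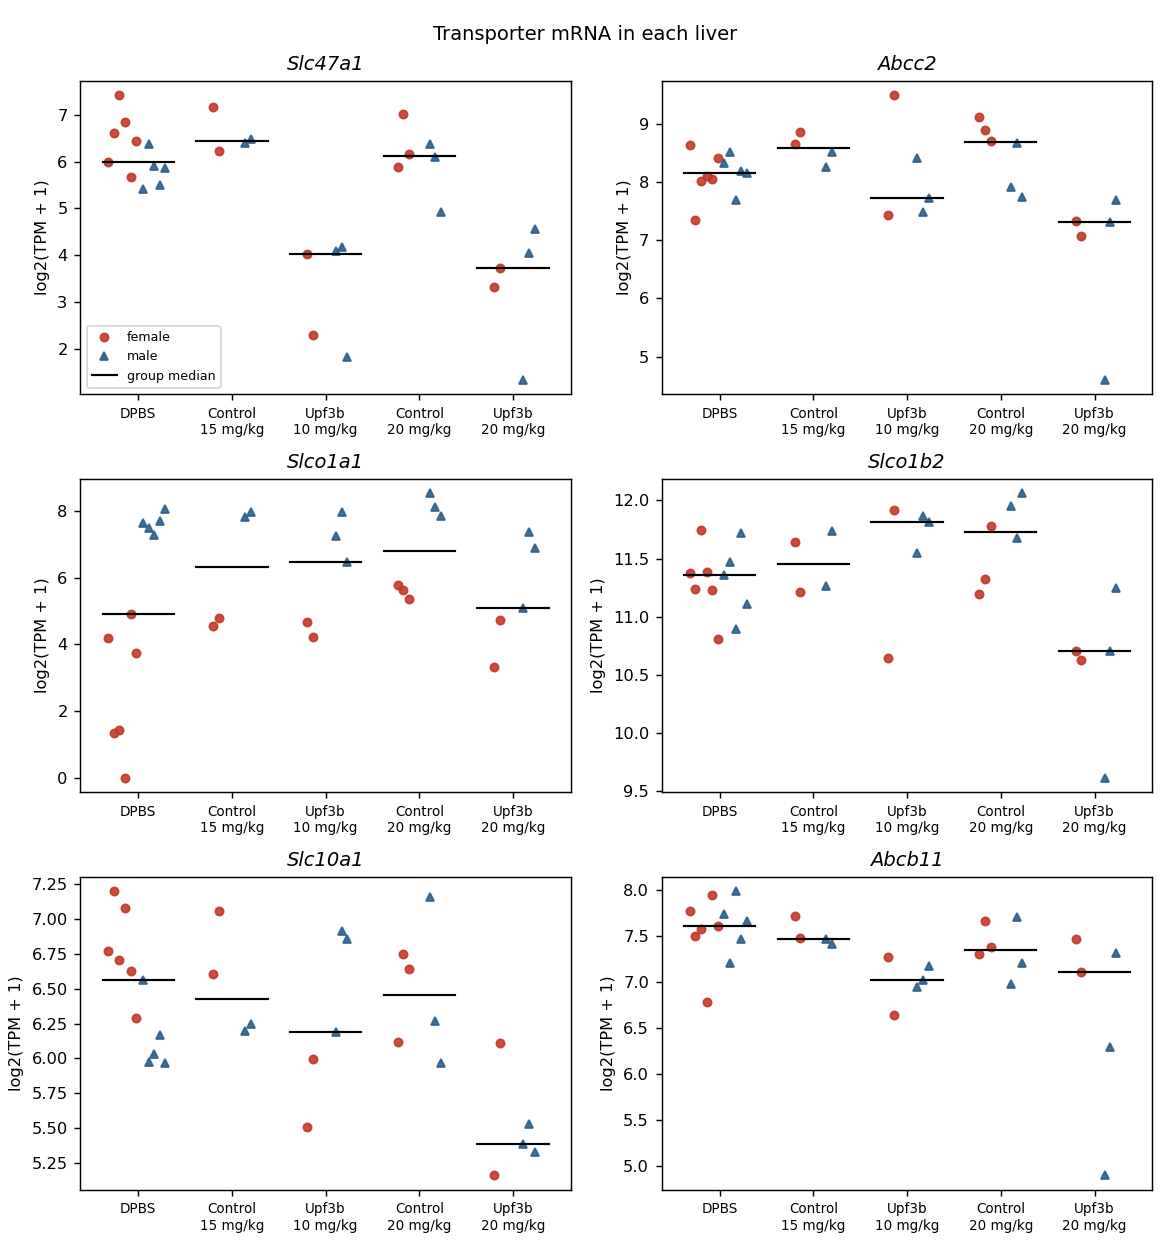
The mRNAs of 6 transporters in each of 31 livers, on a log2(TPM + 1) axis that does not start at 0, by treatment group (x axis), with circles for females, triangles for males and a line at the group median. *Slc47a1* in all 10 mice given Upf3b-GalNAc-ASO was below all 21 other mice, and *Abcc2* at 20 mg/kg did not overlap its control group.

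The other canalicular members did not pass the test in any comparison of *Upf3b*-GalNAc-ASO with Control-GalNAc-ASO. *Abcb11* encodes the bile salt export pump. It had 154, 123, 99.0, 129 and 144 TPM in the *Upf3b* group at 10 mg/kg and 210.3, 176, 169.5 and 178 TPM in its control group, which did not overlap. In the matched pair it had 177, 28.8, 77.4, 158 and 137 TPM against 126 to 208 TPM, so the ranges overlapped and replicate 2 was again the lowest. The averaged log2 fold change was -0.60 (SE 0.24, limma adjusted p = 0.145), and -0.34 (adjusted p = 0.231) without the replicates named above. *Abcg2*, which encodes the breast cancer resistance protein, had an averaged log2 fold change of -0.95 (SE 0.33, adjusted p = 0.0844). The averaged values for *Abcg5* and *Abcg8*, whose products form the sterol pump of the canaliculus, were -0.15 (SE 0.24) and -0.36 (SE 0.28). Those for *Abcb4*, the phosphatidylcholine floppase, and *Abcb1a*, a drug efflux pump (P-glycoprotein), were -0.13 (SE 0.27) and -0.24 (SE 0.40), with adjusted p-values of 0.833 and 0.774. Without replicate 2 at 20 mg/kg the value of *Abcb4* was 0.035. Transcripts of *Abcb1a* share 23.3% of their 31-base words with other genes, mostly its neighbour *Abcb1b*, so reads of this pair may have been split between them. All 8 canalicular members tested had an averaged value below 0, of which 2 passed the test, where 5321 of 9797 genes were below 0 and 3.7% were called as lower. The 8 hepatocyte markers were likewise all below 0. Against DPBS, 2 of the 8 canalicular members were above 0 at 10 mg/kg and 4 were above 0 at 20 mg/kg.

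Of the 8 other efflux members, 5 were tested in the average, 3 had values above 0 and none passed. *Abcc3*, a basolateral pump for glucuronides and bile salts, had an averaged log2 fold change of 0.30 (SE 0.34, limma adjusted p = 0.638). *Abcc6*, which mediates ATP release from hepatocytes, had -0.996 (SE 0.45, adjusted p = 0.188). The others above 0 were *Abcg1*, a sterol transporter, at 0.77 (SE 0.49, adjusted p = 0.366), and *Abcc5*, a pump of cyclic nucleotides, both chosen here after their values were seen. For *Abcg1*, replicate 3 of the *Upf3b* group at 10 mg/kg had 69.4 TPM and the other mice of that group had 1.38 to 8.44 TPM. Medians of *Abcg1* at 20 mg/kg were 3.09 TPM in the *Upf3b* group and 3.06 TPM in the control group. *Abcc5* had 0.64 (SE 0.26, adjusted p = 0.153) in the average and 0.94 (SE 0.36, adjusted p = 0.165) in the matched pair. At 20 mg/kg it had 46.4, 37.2, 39.5, 33.2 and 38.4 TPM in the *Upf3b* group and 9.09 to 34.01 TPM in control mice. The groups overlapped over all mice but not within a sex. The share of all genes apart within both sexes was not counted, for *Abcc5* or for the members below. Each sex of an ASO group held only 2 or 3 mice. Other members, *Slc10a1* at 20 mg/kg among them, were also apart within both sexes. *Abcc4*, a basolateral pump of cyclic nucleotides and conjugates, was below the filter, with medians between 0.217 and 4.37 TPM over the 5 groups.

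Among uptake carriers, *Slco1a1*, an organic anion transporter on chr6:141907282-141946962 (minus strand), was lower at 20 mg/kg than in its control group. The 2 females of the *Upf3b* group had 8.95 and 25.7 TPM against 40.6, 49.0 and 53.7 TPM in control females, and the 3 males had 33.0, 119 and 164 TPM against 233, 277 and 373 TPM. The groups overlapped only because the sexes differ, and within each sex they did not. DPBS females had 0 to 29.0 TPM, so the control females lay above all of them and the *Upf3b* females lay within their range. DPBS males had 155 to 266 TPM, a range that held the *Upf3b* male with 164 TPM and lay above the males with 33.0 and 119 TPM. In the first pair the females had 17.8 and 24.4 TPM against 22.5 and 27.1 TPM, and the males 87.9, 153 and 253 TPM against 225 and 253 TPM, with overlap in both sexes. The log2 fold change was -1.66 (SE 0.37, limma adjusted p = 0.0204) at 20 mg/kg, -0.47 (SE 0.35, adjusted p = 0.530) in the first pair and -1.06 (SE 0.27, adjusted p = 0.0174) as their average. The adjusted p of the average rose to between 0.0504 and 0.0517 without control replicate 2 or 3 at 15 mg/kg. That of the matched pair rose to between 0.0532 and 0.0834 without control replicate 2 or 3 or *Upf3b* replicate 1. Both calls were also lost with no filter on low values, without the sex term, in 1 fit over all mice, in either sex alone and with the replicate block (adjusted p = 0.0530 to 0.577, limma).

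*Slco1b2*, the mouse counterpart of the human hepatic carriers OATP1B1 and OATP1B3, lies in the same cluster at chr6:141629518-141686646 (plus strand). At 20 mg/kg, replicates 1, 2, 4, 5 and 6 of the *Upf3b* group had 1666, 785, 1672, 2434 and 1578 TPM, and the control median was 3392 TPM (range 2342 to 4277 TPM). A single *Upf3b* mouse reached the control range, and within each sex the groups did not overlap. At 10 mg/kg the values were 1599, 3000.4, 3869, 3727 and 3591 TPM against 2377 to 3409 TPM, with 3 of 5 mice above every control mouse. The log2 fold change was -1.10 (SE 0.27, limma adjusted p = 0.0326) at 20 mg/kg, 0.07 (SE 0.30, adjusted p = 0.940) in the first pair and -0.52 (SE 0.20, adjusted p = 0.125) as their average. The difference between the 2 effects was -1.18 (SE 0.40, limma adjusted p = 0.455), which did not pass the test. The average passed the adjusted p in 2 of 32 settings. These were array weights and leaving out both replicate 3 at 10 mg/kg and replicate 2 at 20 mg/kg, the latter added after seeing the data. The matched value was -0.84 (limma adjusted p = 0.0275) without replicate 2 of the *Upf3b* group. The adjusted p was 0.0554 to 0.0839 without control replicate 2, 3, 5 or 6 or *Upf3b* replicate 1 or 6, and 0.0973 to 0.388 with no filter, in either sex alone and with the replicate block (limma).

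*Slc10a1*, the sodium taurocholate cotransporter, had 34.7, 40.7, 45.1, 39.1 and 68.1 TPM in the *Upf3b* group at 20 mg/kg, where control mice had between 61.6 and 142 TPM. A single mouse reached the control range, but the log2 fold change of -0.97 (SE 0.30, limma adjusted p = 0.0840) did not pass the test, and in the first pair it was -0.26 (SE 0.37, adjusted p = 0.760). *Slco2b1* and *Slco1a4*, also organic anion carriers, had averaged values of -0.41 (SE 0.23) and -0.61 (SE 0.36), with adjusted p-values of 0.301 and 0.317. *Slco3a1* was at 0 in 3 of 5 mice of the *Upf3b* group at 20 mg/kg, with 1.49 TPM as the highest value, against 1.62 to 10.7 TPM in control mice. Its log2 fold change of -2.05 (SE 0.68) passed the thresholds of the study as applied to limma (2-fold or more, with a p before adjustment up to 0.01), but not the adjusted p (0.106, limma). The value depends on the pseudocount of 1 TPM, since it was -2.62 with 0.5 TPM and -0.90 with 5 TPM. *Slco3a1* passed the filter only by its control median (5.59 TPM, against 0 in the *Upf3b* group), and such entry favours a lower value.

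*Slc22a7*, the organic anion transporter OAT2, and *Slc22a15*, a carrier of zwitterions that is in neither list, had positive values at 10 mg/kg. *Slc22a7* had 77.3, 273, 47.0, 140.4 and 102 TPM in the *Upf3b* group and 16.7, 63.2, 63.9 and 34.6 TPM in its control group, with overlap over all mice but none within a sex. Its log2 fold change was 1.29 (SE 0.37, limma adjusted p = 0.136). *Slc22a15* had 41.0, 14.1, 29.5, 13.0 and 20.0 TPM against 16.5, 2.80, 4.81 and 17.6 TPM, again apart within each sex, and a log2 fold change of 1.43 (SE 0.43, adjusted p = 0.159). Both passed the thresholds of the study and neither passed the adjusted p. In the matched pair their log2 fold changes were 0.41 (SE 0.43) and 0.10 (SE 0.39). *Slc22a5*, the carnitine transporter OCTN2, was below the filter, with medians between 1.42 and 4.11 TPM, and its transcripts share 37.8% of their 31-base words with other genes.

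Counted over all members, *Upf3b*-GalNAc-ASO at 10 mg/kg gave 1 call among 35 tested (*Slc47a1*) at an adjusted p under 0.05, where 0.295% of 9166 genes were called (0.175% as lower). At 20 mg/kg there were 4 calls, all lower, among 36 tested, beside 2.52% of 9376 genes (1.59% as lower). In the average of both pairs there were 4 calls among 37 tested, all lower and with *Slc47a1*, *Slco1a1* and *Abcc2* among them, beside 6.27% of 9797 genes (3.7% as lower). The average draws on the same 20 mice as the single pairs. By the thresholds of the study, 3 members were called at 10 mg/kg, 2 of them higher, beside 4.81% of genes (2.56% as higher and 2.25% as lower). The matched pair gave 5 calls, all lower, beside 6.23% of genes (2.36% as higher and 3.87% as lower), and the average gave 3, all lower, beside 5.82% (2.3% as higher and 3.52% as lower). Groups did not overlap for 3 members in each pair, all lower in the *Upf3b* group. They included *Slc47a1* and *Abcb11* at 10 mg/kg, beside 4.81% of genes, and were *Slc47a1*, *Abcc2* and *Slco3a1* at 20 mg/kg, beside 3.48%. For *Slco3a1* the gap was between 1.49 TPM (7 reads) in a *Upf3b* mouse and 1.62 TPM (4 reads) in a control mouse. These values lie near the limit of 3 reads. *Slco3a1*, also 1 of the 5 calls of the matched pair by the thresholds of the study, passed the filter by its control median only.

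Uptake and efflux members were then set side by side. In the first pair the median log2 fold change was -0.40 for the 13 uptake members tested and -0.45 for the 12 efflux members, and that of all genes was -0.03. The matched pair had medians of -0.65 for 13 uptake members, -0.42 for 12 efflux members and -0.12 for all genes. In the average they were -0.52, -0.36 and -0.06. Values above 0 were found for 1 uptake member and 3 efflux members at 20 mg/kg, and for 3 of each in the first pair. All 8 organic anion and bile acid carriers tested in the matched pair were below 0, 2 of them past the test. Over all genes, 5326 of 9376 were below 0 and 1.59% were called as lower. Of the carriers, *Slco3a1* and *Slco1a6* passed the filter only by their control medians (5.59 and 6.59 TPM, against 0 and 2.79 TPM). Such entry favours a lower value. *Slc22a26* and *Slc22a27* entered the uptake median of the matched pair in the same way. The difference between the dose pairs had a median of -0.59 over uptake members and 0.25 over efflux members, with -0.07 over all genes, and no member passed the test of that difference (limma, 0 of 9797 genes, or 0%, did so, and 3 members and 8.16% of genes had an unadjusted p under 0.05). With DPBS as the reference, *Upf3b*-GalNAc-ASO at 10 mg/kg had medians of -0.17 for 12 uptake members, -0.03 for 12 efflux members and 0.03 for all genes. At 20 mg/kg they were -0.43 for 11 uptake members, 0.10 for 11 efflux members and 0.05 for all genes. These medians describe the members that passed the filter and carry no test.

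**Figure D2:**
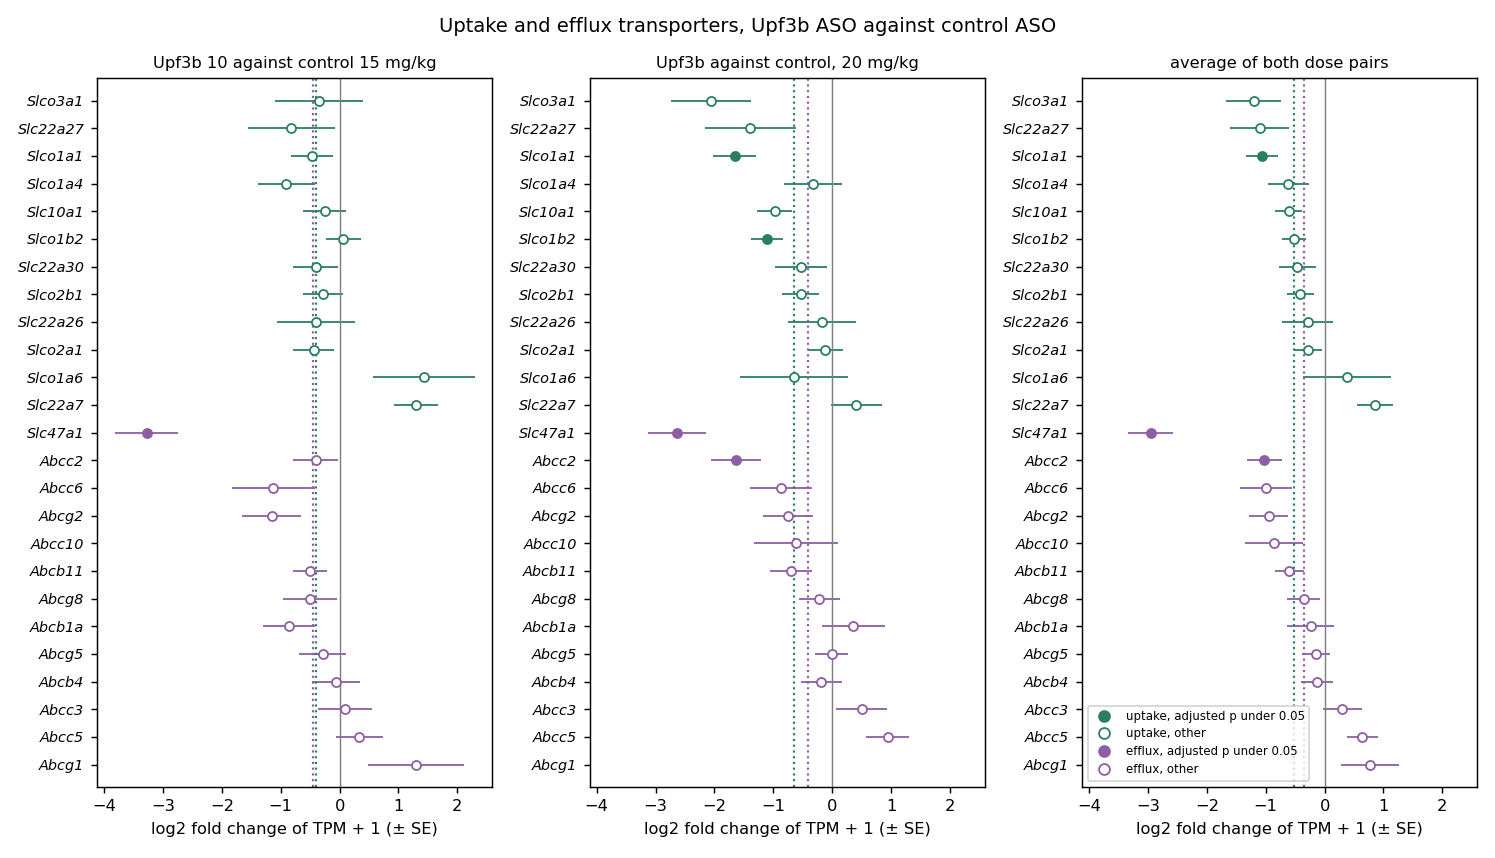
Log2 fold change of TPM + 1 with its SE (x axis) for uptake (green) and efflux (purple) members tested in each comparison of Upf3b-GalNAc-ASO with Control-GalNAc-ASO, with filled points at an adjusted p under 0.05 and dotted lines at the median of all tested members of each role. The medians are -0.40 and -0.45 in the first pair and -0.65 and -0.42 at 20 mg/kg.

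Summed over all members of a role, with no filter and no test, uptake TPM did not overlap in the matched pair. The sum over the 34 uptake members was 1276 to 3110.5 TPM with a median of 2172 TPM in the *Upf3b* group and 3129 to 5274 TPM with a median of 4261 TPM in the control group. In that *Upf3b* group *Slco1b2* made up 61.5% to 78.2% of the sum, so the sum mostly restates this gene. The sum over the 17 efflux members was 365 to 974 TPM with a median of 927 TPM, against 775 to 1501 TPM with a median of 1193 TPM. The ratio of uptake to efflux had medians of 2.42 and 3.58 with overlapping ranges (2.32 to 3.53 and 2.23 to 6.81), and in DPBS mice its median was 3.10. In the first pair the medians of the ratio were 3.79 in the *Upf3b* group and 2.80 in the control group, which is the opposite order.

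**Figure D3:**
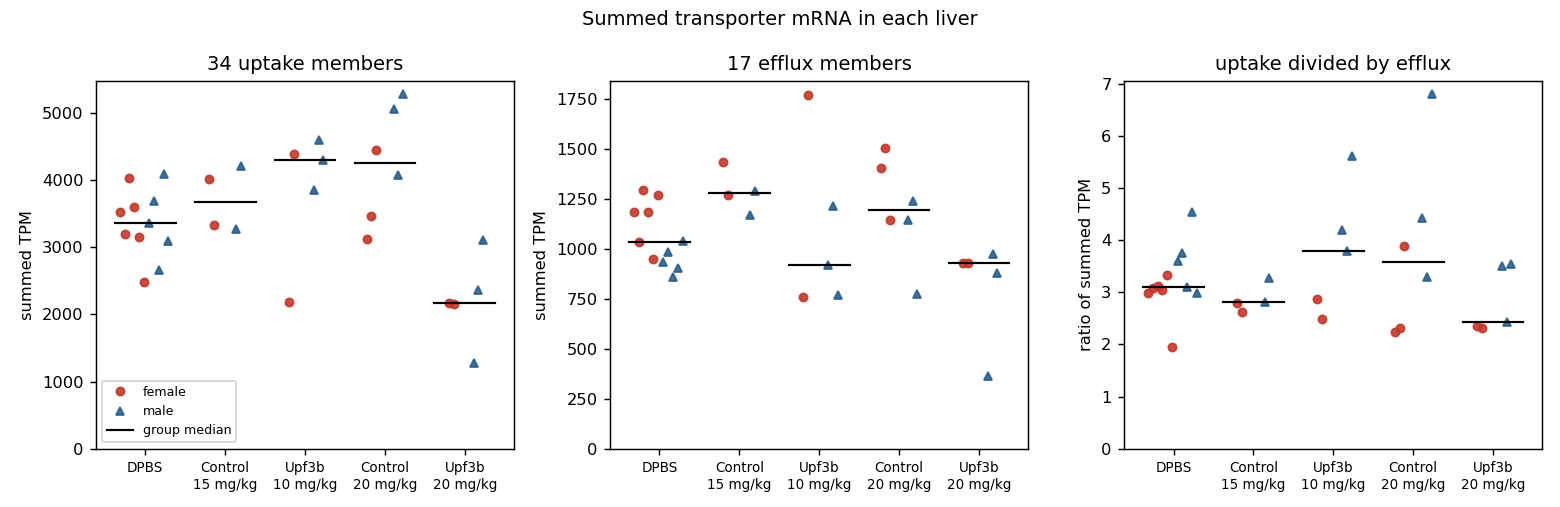
Summed TPM of the 34 uptake members, of the 17 efflux members and the ratio of the 2 sums in each liver, by treatment group (x axis), with circles for females, triangles for males and a line at the group median. Median uptake was 2172 TPM after Upf3b-GalNAc-ASO and 4261 TPM after Control-GalNAc-ASO at 20 mg/kg, and the ratios overlapped.

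None of the 5 intracellular ABC transporters, which serve mitochondria and lysosomes among others (*Abcb6* to *Abcb10*), and none of the 6 other members tested passed the adjusted p in these comparisons. Their median averaged log2 fold changes were -0.10 and -0.07.

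Against DPBS, Control-GalNAc-ASO called no member. At 15 mg/kg 0 of 34 members and 0 of 8971 genes passed the adjusted p (limma), while 3 members and 7.18% of genes had an unadjusted p under 0.05. At 20 mg/kg these were 0 of 36 members and 0 of 9140 genes, with 7 members and 9.9% of genes at an unadjusted p under 0.05. The median over members was 0.31 at 15 mg/kg and 0.20 at 20 mg/kg, beside 0.07 and 0.15 over all genes, so that the control mice lay on the higher side of DPBS. *Upf3b*-GalNAc-ASO called 1 member against DPBS at each dose, which was *Slc47a1* both times, at -2.84 (SE 0.40, adjusted p = 3.64e-04) and -2.71 (SE 0.40, adjusted p = 4.05e-04), beside 0.376% and 1.13% of genes (0.266% and 0.837% as lower). *Abcc2* at 20 mg/kg was -1.31 (SE 0.36, adjusted p = 0.0781), and *Slco1a1* and *Slco1b2* were -0.03 and -0.72, neither past the test. All these comparisons share the DPBS mice.

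Genes that make, conjugate or sense bile acids were read from a list of 22 that holds no transporter of the families above. In the average of both pairs 18 were tested, of which 4 were lower at an adjusted p under 0.05 and none was higher, where 6.27% of genes were called (3.7% as lower). *Akr1d1*, a reductase of the bile acid ring, had a log2 fold change of -1.38 (SE 0.31, limma adjusted p = 0.00816) and *Cyp7b1*, an oxysterol hydroxylase, of -1.27 (SE 0.33, adjusted p = 0.0182). *Cyp27a1*, the sterol side chain hydroxylase, had -0.68 (adjusted p = 0.0362) and *Fabp1*, a fatty acid binding protein of hepatocytes, had -0.94 (adjusted p = 0.0495). *Cyp7a1*, the rate-limiting enzyme of bile acid synthesis, had -0.52 (SE 0.48, adjusted p = 0.565), and *Cyp8b1*, the sterol 12-hydroxylase, had 0.12 (SE 0.23, adjusted p = 0.8). Of 17 regulators of transporter genes, 16 were tested and 1 was lower, a share near the 6.27% of all genes called. It was *Nr1i3*, the constitutive androstane receptor, at -0.98 (SE 0.24, adjusted p = 0.0161). *Nr1h4*, the bile acid receptor FXR, had -0.28 (SE 0.26, adjusted p = 0.567).

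Sex was compared within the DPBS group, 5 males with 6 females. Of 35 members tested 6 passed the adjusted p, beside 1.41% of 8998 genes (0.667% as higher in males and 0.745% as lower). Of the 6, 5 were uptake carriers, which made up 13 of the 35 tested. *Slc22a26* and *Slc22a27* passed the filter only by their female medians, and *Slc22a28* only by its male median. Such entry favours a difference between the sexes. *Slco1a1* was higher in males, at 155 to 266 TPM (median 201) against 0 to 29.0 TPM (median 7.09) in females, a log2 difference of 5.04 (SE 0.73, limma adjusted p = 9.86e-04). *Slc22a28* was at 0 in all 6 females and at 1.76 to 15.7 TPM in males, a fitted difference of 2.86 (SE 0.63, adjusted p = 0.0218) that depends on the pseudocount of 1 TPM.

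The other 4 were higher in females. *Slc22a26* had 98.8 to 138 TPM in females and 0 to 2.82 TPM in males, a log2 difference of -5.82 (SE 0.38, limma adjusted p = 1.86e-08). *Slco1a4* had 31.8 to 80.6 TPM and 0.802 to 7.95 TPM, a difference of -3.12 (SE 0.44, adjusted p = 3.19e-04). *Abcb1a* had 29.0 to 91.4 TPM and 6.73 to 15.6 TPM, a difference of -2.13 (SE 0.36, adjusted p = 0.00196). *Slc22a27* had 1.61 to 12.5 TPM in females and at most 0.369 TPM in males (-2.69, SE 0.61, adjusted p = 0.0267). With males at or near 0, the sizes for *Slc22a26* and *Slc22a27* depend on the pseudocount, from -6.26 with 0.5 TPM to -4.34 with 5 TPM for the first and from -3.49 to -1.15 for the second. The sexes did not overlap for any of the 6, but these were picked by the test of sex in the same mice. The share of all genes whose sexes did not overlap was not counted. The calls of *Slc22a27* and *Slc22a28* were lost without some single mice (adjusted p up to 0.0831 and 0.114), those of replicates 1, 2, 3, 4, 8 and 11 for the first and 1, 2 and 8 for the second. Transcripts of *Slc22a27* share 46.9% of their 31-base words with other genes, mostly *Slc22a29*, and those of *Slc22a28* share 68.2%, mostly with *Slc22a30*, so reads of these neighbours may have been assigned to each other.

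**Figure D4:**
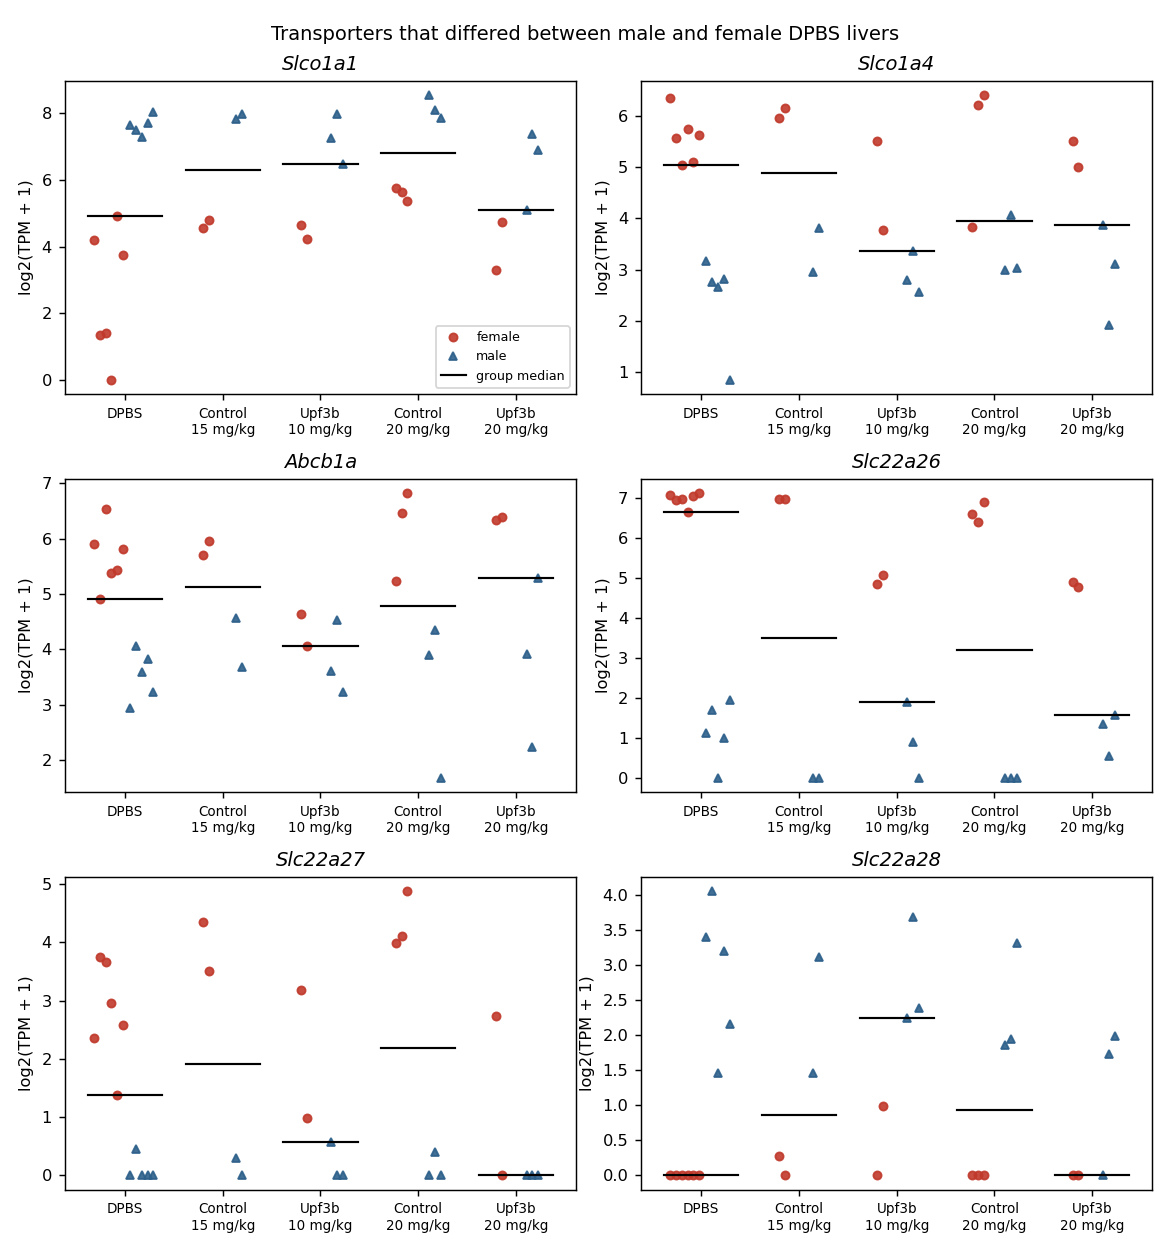
The 6 members that differed between male and female DPBS livers, as log2(TPM + 1) in each of 31 livers by treatment group (x axis), with circles for females, triangles for males and a line at the group median. *Slc22a26* in the 4 females given Upf3b-GalNAc-ASO (26.1 to 32.3 TPM) lay below all 11 other females (83.1 to 138 TPM).

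*Slc22a26*, a member of the organic anion transporter family on chr19:7781041-7802667 (minus strand), was lower in females given *Upf3b*-GalNAc-ASO. The 2 females at 10 mg/kg had 27.9 and 32.3 TPM and the 2 at 20 mg/kg had 28.5 and 26.1 TPM. The 5 control females had 125, 124, 95.8, 83.1 and 118 TPM, and the median of the 6 DPBS females was 127 TPM (range 98.8 to 138 TPM). The 4 values lay within a narrow band, below all 11 others. Males had between 0 and 2.82 TPM in all groups, from 0 to 19 estimated reads of *Slc22a26*. Those of the matched pair had 1.54, 0.461 and 1.95 TPM (8, 1 and 4 reads) after *Upf3b*-GalNAc-ASO and 0 in all 3 control mice, which is the opposite order. The mean log2 difference between the 4 females and the 5 control females was -1.88 (exact permutation test, two-sided, p = 0.00794), and from the 6 DPBS females it was -2.07 (exact permutation test, two-sided, p = 0.00476), each the smallest p that its design allows. This gene was picked for these tests after its values were seen. Control females differed from DPBS females by -0.20 (exact permutation test, two-sided, p = 0.167). Fitted across all genes in females only, the averaged log2 fold change was -1.91 (SE 0.35, limma adjusted p = 0.0164), beside 0.422% of 10655 genes called. In the fit over both sexes it was -0.29 (SE 0.43, adjusted p = 0.745). The interaction with sex was 2.92 (SE 0.68, limma adjusted p = 0.471) and did not pass the test, in which 1 of 9797 genes passed. With males near 0 in all groups a fall could hardly show in them, so the interaction cannot compare the responses of the sexes. *Slc22a27* in females had 8.04, 0.98, 5.65 and 0 TPM after *Upf3b*-GalNAc-ASO, 10.4 to 28.4 TPM in control females and 1.61 to 12.5 TPM in DPBS females, so that it was apart from the first and overlapped the second.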

How the data were processed

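Liver RNA of 31 mice was analysed, with group, replicate number and sex from the sample labels. The authors ran Salmon 0.7.2 on an Ensembl cDNA index of GRCm38, and their deposited values are TPM, a column per mouse by gene symbol. The labels name a kit for libraries from transcript 3′ ends, whereas the methods of the study name TruSeq. Between 75.7% and 83.3% of the values under 50 steps came out whole in each mouse at a tolerance of 0.02 reads, which is too few to recover counts, so no count test was used. After 26 symbols turned into dates were left out, 31172 were used.

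Log2(TPM + 1) of genes whose median reached 5 TPM in any compared group was fitted with limma 3.58.1 in R 4.3.3 (lmFit, eBayes with trend and robust), with sex as a covariate, and p-values were adjusted over all genes tested (Benjamini-Hochberg). The test of the study, which is based on a negative binomial model, was not run on TPM, but its thresholds were applied to the p-values of limma. The mice of each group were separate animals. Exact permutation tests were run in Python 3.11.15 with numpy 2.4.6 and pandas 2.3.3, and figures were drawn with matplotlib 3.10.9. The fits were tested on simulated data. Positions and shared 31-base words came from GENCODE M21 (GRCm38), in which all 76 members were found. The ASO sequence came from the supplementary table of the study and was searched for in spliced transcripts only, without introns.

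Counts and medians cover all members, but the values of 1 member are not reported here. The members and lists were chosen with earlier results of these data known. Named genes were the core hepatic transporters, the members called in a comparison of ASOs or against DPBS, the largest of those called by sex, and *Upf3b* with named pathway genes. Alternatives were other pseudocounts, filters, scaling and weights, no sex term, single sexes, 1 fit over all mice, the replicate number as a block, and each mouse left out in turn. Same-numbered mice of the compared groups did not deviate together (mean correlation of deviations -0.02 and -0.04).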

Additional observations from a re-analysis of the deposited data

Results flagged for a closer look

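In groups of 4 to 10 mice, the highest and the lowest value of each named member were set against the other mice of the group on the log2(TPM + 1) scale. In 7 of 84 pairs of member and group, a mouse lay farther from the rest than Dixon's 95% critical value, which chance alone gives in about 1 in 20 pairs.

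In the *Upf3b* group at 20 mg/kg, *Abcc2* was 23.2 TPM in replicate 2, with a group median of 157 TPM and a highest value of 204 TPM. *Slc22a27* was 5.65 TPM in replicate 1, a female, and 0 in the other 4 mice.

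The remaining 5 were in the other groups. In the *Upf3b* group at 10 mg/kg, *Abcc6* was 0 in replicate 3, the mouse with the fewest reads, where the highest value of the group was 10.4 TPM. *Slco1b2* was 1599 TPM in replicate 1 (highest 3869 TPM), *Slco2b1* was 49.5 TPM in replicate 2 (highest 111 TPM) and *Abcc3* was 66.4 TPM in replicate 4 (lowest 18.6 TPM). *Abcc3* was 8.48 TPM in replicate 4 of the control group at 15 mg/kg, where the highest value was 37.5 TPM. The causes were not tested.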

How the results depend on the processing

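The lower *Slc47a1* in the average of both dose pairs was called under all 32 settings tried, between -3.18 and -2.47 (limma adjusted p from 3.2e-07 to 0.0400). Over the named members, 985 values kept their direction and side of the threshold, 86 lost a call, 17 gained one and 5 changed sign. The 5 were all uncalled averages: *Abcb1a* 0.085, *Abcg5* 0.035 and *Abcg8* 0.026 in males only, and *Abcb4* 0.15 in females only and 0.035 without *Upf3b* replicate 2 at 20 mg/kg. The causes were not tested, and the single-sex fits had smaller samples.

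The count of members called (4 in the average, 1 in the first pair, 4 in the matched pair) became 8, 3 and 4 with array weights, 1, 0 and 1 with no filter on low values, 2, 0 and 2 in females only, and 1, 0 and 0 in males only. Without the sex term it was 2 in the average and 2 in the matched pair. Against DPBS at 20 mg/kg the count of 1 became 3 in a fit over all mice, 2 with array weights, with median ratio scaling or in females only, and 0 in males only. By the thresholds of the study, the average gave 5 in females only and 1 with median ratio scaling, with a pseudocount of 5 TPM or without both mice that stood apart (added after seeing the data). The matched pair gave 3 in males only, and the first pair gave 1 without sex. The uptake median of the first pair was -0.79 in females only.

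With each mouse left out in turn, adjusted calls ranged from 1 to 5 in the average, 0 to 1 in the first pair, 1 to 4 in the matched pair, 1 to 2 against DPBS at 20 mg/kg and 4 to 6 by sex. They stayed at 1 against DPBS at 10 mg/kg, and at 0 for Control-GalNAc-ASO against DPBS and for the difference between pairs. The mice that moved these counts by over 1.5 times were control replicates 1, 2 and 3 at 15 mg/kg and *Upf3b* replicate 1 at 20 mg/kg in the average, control replicates 1 to 4 in the first pair, control replicates 2, 3, 5 and 6 and *Upf3b* replicates 1 and 6 in the matched pair, and *Upf3b* replicate 5 against DPBS. By the thresholds of the study the ranges were 1 to 5 (5 without control replicate 5 and 1 without *Upf3b* replicate 2, both at 20 mg/kg), 1 to 4 (1 without control or *Upf3b* replicate 2) and 3 to 6 (3 without *Upf3b* replicate 2). *Abcb4* ranged from -0.29 to 0.035. Uptake medians ranged from -0.59 to -0.41, -0.53 to -0.23 and -0.80 to -0.54, and efflux medians from -0.53 to -0.28, -0.51 to -0.35 and -0.50 to -0.22, in the average, the first and the matched pair.

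Same-numbered mice of the compared groups share only a number. With the replicate block, 1 member was called in the average, 1 in the first pair, 1 in the matched pair, 0 against DPBS at 10 mg/kg and 1 at 20 mg/kg, and medians of the average were -0.53 for uptake and -0.39 for efflux. Depth limits low members, since 3 reads were worth up to 2.94 TPM.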
